A study of Mus musculus with 2 samples.

Results

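Transcripts of the 9 neuronal nicotinic acetylcholine receptor subunit genes Chrna2, Chrna3, Chrna4, Chrna5, Chrna6, Chrna7, Chrnb2, Chrnb3 and Chrnb4 were measured in the brain of TDAG51-/- dams and of both kinds of control dam. They were chosen by gene name among the non-control spots present on both arrays, which gave 13 probes of 41174 and 9 gene names of 27962. All samples came from female C57BL/6J mice aged 8 weeks, and the brains were obtained on postpartum day 0 (P0). On the first array the TDAG51-/- sample, labelled with Cy3, was hybridized with a TDAG51+/+ sample labelled with Cy5, which addresses which transcripts differ in the postpartum brain without TDAG51. On the second array TDAG51-/- in Cy3 was hybridized with TDAG51-/-Tg2 in Cy5, which addresses which of them differ when a TDAG51 transgene is present on the same deficient background. The Tg2 mice are 1 transgenic line in which the brain-specific BAI1-AP4 promoter drives TDAG51 mainly in the cerebral cortex and hippocampus, so regions outside these were not the main place of the transgene. The labels do not give the number of dams behind a sample, and each comparison rests on 1 array without a dye swap, so no difference between dams could be tested and all folds below are values of single arrays. TDAG51-/- was in Cy3 on both arrays, so a dye effect of a probe cannot be told apart from a difference between samples. Both ratios of a probe share this dye order, so the same sign on both arrays is not independent agreement.

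Neuronal nicotinic receptors are pentameric cation channels opened by acetylcholine and by nicotine. Alpha subunits carry the principal face of the agonist site, and most need a beta partner, whereas the subunit encoded by Chrna7 can form a channel by itself. In the brain the pair encoded by Chrna4 and Chrnb2 makes up most of the high-affinity nicotine binding, the products of Chrna3, Chrnb4 and Chrna5 are known from the medial habenula and autonomic ganglia, and those of Chrna6 and Chrnb3 from catecholamine neurons.

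The probes are 60-base oligonucleotides, and a gene with more than 1 probe is described by its brighter and dimmer probe, which only name them. Where the probe spans an intron in the mm7 coordinates of the scanner output, or at least 2 of its 3 reading frames are free of stop codons, the whole probe is printed, 5′ to 3′, so that what each spot detected can be seen. Coordinates of the intron-spanning probes exceed the probe length by 2207 bases for the dimmer Chrna3 probe, 1254 for Chrna5 and 38106 for the dimmer Chrna7 probe.
Chrna3 dimmer probe: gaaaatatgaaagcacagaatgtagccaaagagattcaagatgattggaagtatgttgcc
Chrna5: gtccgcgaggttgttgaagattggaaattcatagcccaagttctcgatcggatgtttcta
Chrnb4: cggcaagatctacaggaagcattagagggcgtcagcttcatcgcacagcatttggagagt
Chrna6: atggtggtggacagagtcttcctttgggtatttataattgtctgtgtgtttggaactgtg
Chrna7 dimmer probe: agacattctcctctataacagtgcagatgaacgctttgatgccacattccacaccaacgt
For the other probes the first 30 bases are printed, since their readings can differ between probes of the same gene, as they did for Chrna3, Chrna4, Chrnb3 and Chrna7.
Chrna3 brighter probe: tctcaacagtgattgagatataagagatga
Chrnb3 brighter probe: tctctaactagtcttttgtttggactcttc
Chrnb3 dimmer probe: aacttttctaatacaggtaggaactacacc
Chrna4 brighter probe: tgcctccatggttggctggtatgatctagg
Chrna4 dimmer probe: gttagggcagaatgcttgatttaagacttt
Chrnb2: tgggtatgttgtcactgttgaaaggtcaaa
Chrna7 brighter probe: cgagaattggggtcctaactctacattgtg
Chrna2: tgcctcacataggaactgagatctttgcat
The brighter Chrnb3 probe is annotated in the scanner output to the accession NM_173212, transcript variant 1, and the dimmer one to NM_027454, transcript variant 2. Their starts lie 1528 bases apart, and those of the Chrna4 probes 2119 bases.

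The median probe of the first array had an intensity of 325 (Cy3) and 348 (Cy5), that of the second array 322 and 368, and the lowest median background of a channel was 39.0. The probe for Phlda1, the gene that encodes TDAG51, read 350 in TDAG51-/- and 7283 in TDAG51+/+, a 17.3-fold lower value in TDAG51-/-. The reading of 350 was nevertheless well above background. On the second array the probe read 44.1 in TDAG51-/- and 50.5 in TDAG51-/-Tg2, not well above background in either. It therefore does not check the label of the transgenic sample, and the reason for the unlike TDAG51-/- readings was not tested. Repeated spots of the same probe had an SD of 0.0638 and 0.0632 on the log2 scale, over 245 probes with at least 5 spots, and of 0.095 and 0.104 over the 86 of these with an intensity under 300. This is the spread of spots on an array and not the spread between dams.

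Of the 13 subunit probes, 10 carried the scanner's mark for a signal well above background in TDAG51-/- on each array, 10 in TDAG51+/+ and 7 in TDAG51-/-Tg2. Over all probes these shares were 82.3%, 81.0%, 78.9% and 75.5%. Only 4 subunit probes, for Chrna4 (both), Chrna6 and Chrnb2, had a mean intensity over 800, and the other 9 were under 300, where the choice of background correction weighs most. Bulk brain RNA does not separate fewer cells of a type from less RNA per cell.

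**Figure D1:**
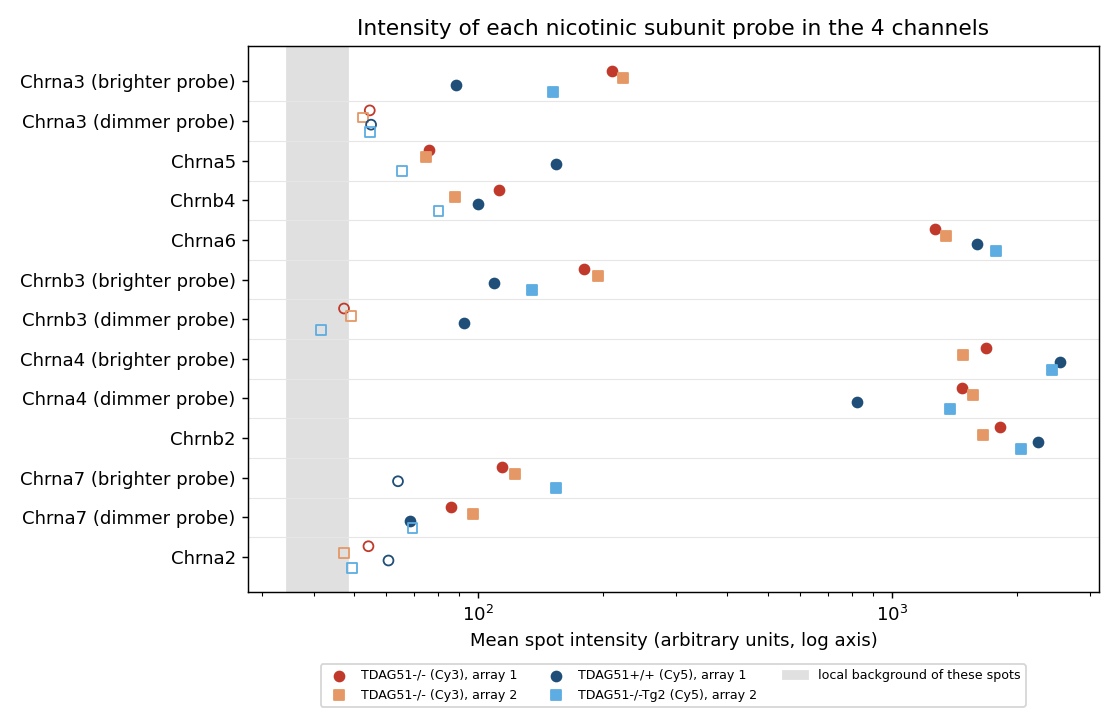
Mean spot intensity (arbitrary units, log axis) of each of the 13 subunit probes in the 4 channels. Circles are the first array and squares the second, reds are TDAG51-/- and blues the controls, open symbols were not well above background, and the grey band spans the local background of these spots. Both Chrna4 probes, Chrna6 and Chrnb2 lie far to the right of the band, and the dimmer Chrna3 probe and Chrna2 lie beside it in all 4 channels.

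Ratios are given as log2 of TDAG51-/- over control after normexp background correction with an offset of 50 and loess normalization. The error beside the scanner's own ratio is that of its error model for the spot. Adding the offset draws the ratios of dim spots toward 0, and the scanner's ratio, made without it, is larger in size for these. The offset is not the whole difference, as the brighter Chrna3 probe had 1.66 over TDAG51+/+ with offset 0 against 1.98 by the scanner.

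Chrna3, Chrna5 and Chrnb4 lie next to each other on chromosome 9. The brighter Chrna3 probe (NM_145129, chr9:55041736-55041795, minus strand, mm7) read 211 in TDAG51-/- against 88.5 in TDAG51+/+, and 224 in TDAG51-/- against 152 in TDAG51-/-Tg2. TDAG51-/- was thus the higher sample on both arrays, by 2.15-fold over TDAG51+/+ and 1.57-fold over TDAG51-/-Tg2, log2 ratios of 1.10 and 0.65. The scanner's log2 ratios were 1.98 ± 0.28 and 1.03 ± 0.24. The dimmer Chrna3 probe (chr9:55043215-55045481, minus strand), which spans an intron, read 54.7 in TDAG51-/- and 55.1 in TDAG51+/+, and 52.7 in TDAG51-/- and 54.9 in TDAG51-/-Tg2. None of these 4 readings was well above background, so the second probe gives no ratio for Chrna3.

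Chrna5, an accessory subunit that does not form the agonist site itself, was measured by a probe spanning an intron (NM_176844, chr9:55035463-55036776, plus strand). It read 75.9 in TDAG51-/- and 154 in TDAG51+/+, and 74.7 in TDAG51-/- and 65.4 in TDAG51-/-Tg2. TDAG51+/+ was the highest of the 4 readings, and TDAG51-/- was 1.84-fold lower than it, a log2 ratio of -0.88, while the scanner's log2 ratio was -1.90 ± 0.29. On the second array only TDAG51-/- was well above background, with a floor fold of 1.07 over TDAG51-/-Tg2. The measured log2 ratio was 0.29 and the scanner's log2 ratio 2.20 ± 0.76. The sign of the Chrna5 ratio over TDAG51+/+ was therefore opposite to that of the neighbouring Chrna3.

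Chrnb4, the beta partner of the Chrna3 product in the habenula and ganglia (NM_148944, chr9:55064972-55065031, minus strand), read 112 in TDAG51-/- and 100 in TDAG51+/+, and 87.8 in TDAG51-/- and 80.2 in TDAG51-/-Tg2. The first pair differed by 1.11-fold, a log2 ratio of 0.15, with the scanner at 0.30 ± 0.24. In the second pair TDAG51-/-Tg2 was not well above background, and TDAG51-/- was 1.22-fold higher as measured, a log2 ratio of 0.28. The scanner gave 0.74 ± 0.36, and the log2 ratio without normalization was 0.15. Of the genes on either side of this cluster in the GRCm38.p6 order, AY074887, Psma4, Ube2q2 and Fbxo22 had probe log2 ratios between -0.41 and 0.54 over TDAG51+/+ and between -0.19 and 0.40 over TDAG51-/-Tg2. None of them reached 2-fold on either array.

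Chrnb3 and Chrna6 are neighbours on chromosome 8. The brighter Chrnb3 probe (chr8:26154497-26154556, plus strand), for an accessory beta subunit, read 180 in TDAG51-/- and 109 in TDAG51+/+, and 195 in TDAG51-/- and 135 in TDAG51-/-Tg2. TDAG51-/- was higher by 1.58-fold and 1.57-fold, log2 ratios of 0.66 and 0.65, and the scanner gave 1.15 ± 0.24 and 1.04 ± 0.24. The dimmer Chrnb3 probe (chr8:26152969-26153028, plus strand) read 47.4 in TDAG51-/- and 92.6 in TDAG51+/+, and 49.3 in TDAG51-/- and 41.8 in TDAG51-/-Tg2. Only the TDAG51+/+ reading was well above background. TDAG51-/- was lower by this probe, with a floor fold of 1.47, a measured log2 ratio of -0.72 and a scanner's log2 ratio of -4.08 ± 0.63. The Chrnb3 probes, annotated to different transcript variants, thus had opposite signs over TDAG51+/+. Chrna3 and Chrnb3 are among the genes that the study picked on these same arrays, so their direction here is not independent evidence.

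Chrna6, the alpha subunit often assembled with Chrnb3 (NM_021369, chr8:26160008-26160067, minus strand), read 1267 in TDAG51-/- and 1599 in TDAG51+/+, and 1352 in TDAG51-/- and 1778 in TDAG51-/-Tg2. The log2 ratios were -0.13 and -0.15, or 1.10-fold and 1.11-fold lower, and the scanner's ratios of -0.17 ± 0.20 on both arrays lay within their own error of 0. The Chrna6 ratios were thus near 0 where those of the brighter Chrnb3 probe ran above it. Beside this pair, Eif4ebp1 had log2 ratios of -0.60 and -0.66 by the probe above background, and Unc5d of -0.51 and -0.44 by its probe above background on both arrays. Poteg was not well above background in any channel, and no probe of the array was matched to Tex24.

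**Figure D2:**
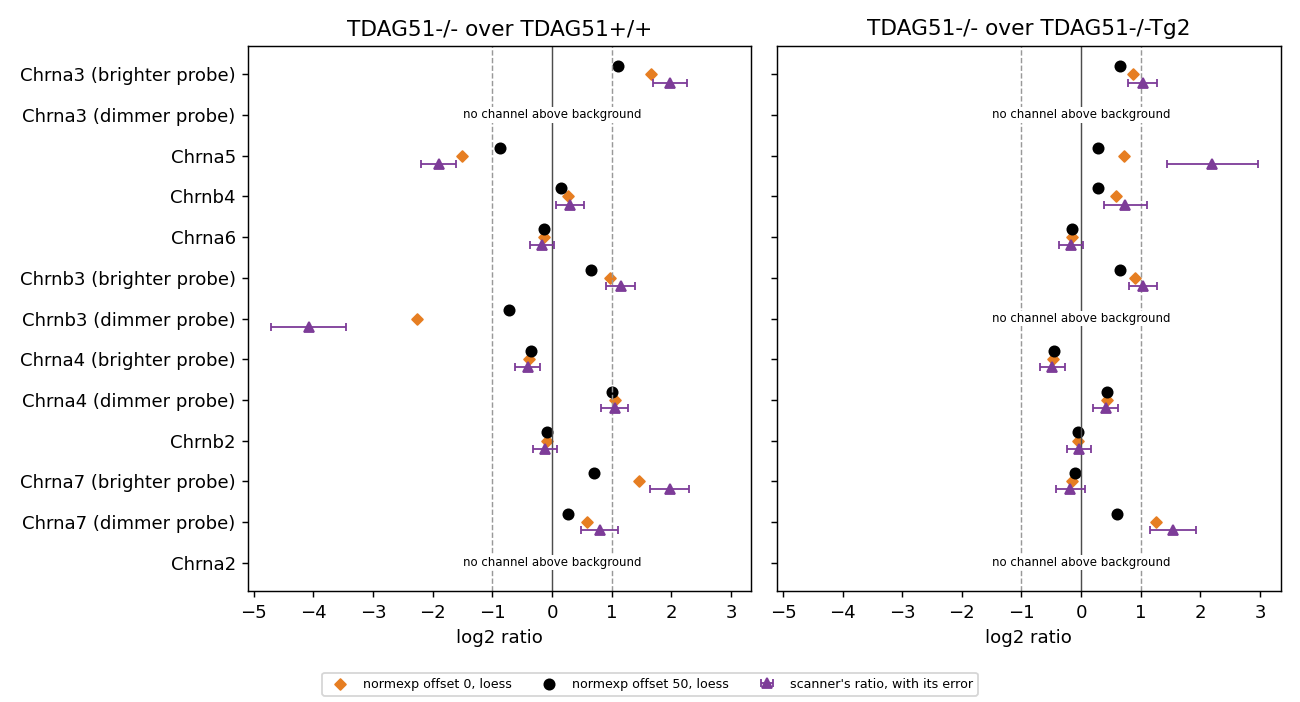
Log2 ratio of TDAG51-/- over TDAG51+/+ (left) and over TDAG51-/-Tg2 (right) for each subunit probe, on a shared axis. Black circles are the reported ratios (normexp offset 50, loess), orange diamonds the same with offset 0, purple triangles the scanner's ratios with the error of its model, and dashed lines mark 2-fold. For the brighter Chrna3 probe all 3 symbols lie above 0 in both panels, from 1.10 to 1.98 on the left and from 0.65 to 1.03 on the right, whereas those of Chrna6 and Chrnb2 overlie each other near 0.

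Chrna4 and Chrnb2 encode the subunits of the main high-affinity receptor and their probes read far above background in all channels. The brighter Chrna4 probe (NM_015730, chr2:181525636-181525695, minus strand) read 1683 in TDAG51-/- and 2542 in TDAG51+/+, and 1486 in TDAG51-/- and 2431 in TDAG51-/-Tg2. TDAG51-/- was the lower sample in both, by 1.29-fold and 1.38-fold, log2 ratios of -0.36 and -0.46. The dimmer Chrna4 probe (chr2:181523517-181523576, minus strand) read 1471 in TDAG51-/- and 821 in TDAG51+/+, and 1567 in TDAG51-/- and 1376 in TDAG51-/-Tg2. By this probe TDAG51-/- was the higher sample, by 2.02-fold and 1.35-fold, log2 ratios of 1.01 and 0.43, with the scanner at 1.05 ± 0.23 and 0.41 ± 0.21. All these readings were far above background. The probes of Chrna4 disagreed in sign on both arrays, which shared the dye order, and no direction is given for the gene. The first ratio is at the edge of the 2-fold threshold, at 0.97 with median centring in place of loess and 0.82 without normalization.

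Chrnb2 (NM_009602, chr3:89880438-89880497, minus strand) read 1821 in TDAG51-/- and 2254 in TDAG51+/+, and 1661 in TDAG51-/- and 2045 in TDAG51-/-Tg2. The log2 ratios were -0.08 and -0.05, the nearest to 0 of the probes that passed the filter on each array. The scanner gave -0.12 ± 0.20 and -0.04 ± 0.20.

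Chrna7 encodes the subunit of the homomeric, calcium-permeable receptor. Its brighter probe (NM_007390, chr7:58848936-58848995, minus strand) read 114 in TDAG51-/- and 64.0 in TDAG51+/+, and 123 in TDAG51-/- and 154 in TDAG51-/-Tg2. The TDAG51+/+ reading alone was not well above background, and TDAG51-/- was 1.63-fold higher than TDAG51+/+ as measured, a log2 ratio of 0.71. Against TDAG51-/-Tg2 the log2 ratio was -0.10. The scanner gave 1.97 ± 0.33 and -0.18 ± 0.24 for this probe. The dimmer probe (chr7:58860255-58898420, minus strand), which spans an intron, read 85.8 in TDAG51-/- and 68.4 in TDAG51+/+, and 97.4 in TDAG51-/- and 69.4 in TDAG51-/-Tg2. TDAG51-/- exceeded TDAG51+/+ by 1.20-fold, a log2 ratio of 0.26. It exceeded TDAG51-/-Tg2, not well above background, with a floor fold of 1.37 and a measured log2 ratio of 0.60. The scanner gave 0.80 ± 0.31 and 1.54 ± 0.39, so the second lay past 2-fold on that scale. Both Chrna7 probes were thus on the higher side over TDAG51+/+. Over TDAG51-/-Tg2 their signs were opposite, but the brighter probe's scanner ratio lay within its error of 0. Chrna2 (NM_144803, chr14:61012687-61012746, plus strand), which marks few interneurons and the interpeduncular nucleus, read 54.3, 60.7, 47.5 and 49.6 in TDAG51-/- and TDAG51+/+ of the first array and TDAG51-/- and TDAG51-/-Tg2 of the second. None was well above background, and no ratio is given for it.

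A probe could be counted where at least 1 channel of its array was well above background, which 11 of 13 subunit probes (8 of 9 genes) met over TDAG51+/+ and 10 of 13 (8 of 9 genes) over TDAG51-/-Tg2. At 2-fold, 2 subunit probes were higher in TDAG51-/- than in TDAG51+/+, the brighter Chrna3 probe and the dimmer Chrna4 probe, and 0 were lower. Over all 34571 probes that met the filter, 4.9% were higher and 4.42% lower. Over TDAG51-/-Tg2, 0 of 10 subunit probes reached 2-fold either way, where 4.72% of 33802 probes were higher and 3.86% lower. Without normalization the all-probe split moved to 3.35% higher and 8.26% lower over TDAG51+/+, and to 2.77% and 8.71% over TDAG51-/-Tg2. Median centring gave 4.78% and 5.63% over TDAG51+/+, and 4.3% and 5.32% over TDAG51-/-Tg2. The median log2 ratio of the subunit probes was 0.15 over TDAG51+/+ and 0.29 over TDAG51-/-Tg2, against 0.01 over all probes in both. Without normalization the medians over all probes were -0.19 and -0.25, so ratios are relative to the bulk of probes.

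The smaller of the 2 ratios was 0.65 for both the brighter Chrna3 and the brighter Chrnb3 probe. Their order by this measure is not settled, since it was 0.87 against 0.91 with offset 0 and 1.03 against 1.04 by the scanner. The 5 probes nearest to the brighter Chrna3 probe over both ratios, by Euclidean distance on the log2 scale over these 2 arrays, were those of Cab39l, AK043448, Plxna3, Slc18a2 and Zfp78, at distances from 0.00497 to 0.0201. In all, 87 probes lay within 0.1 of it, so many probes share such values.

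The TDAG51-/-Tg2 and TDAG51+/+ samples were never hybridized together, and were set side by side through their normalized Cy5 channels. Of the 11 subunit probes well above background in at least 1 of these channels, 0 were at least 2-fold higher in TDAG51-/-Tg2 and 1 was at least 2-fold lower, where 3.79% of 33377 probes were higher and 4.11% lower. The 1 probe was Chrna5, with a measured log2 difference of -1.16. TDAG51-/-Tg2 was not well above background there, and the floor fold, lower in TDAG51-/-Tg2, was 1.97. The dimmer Chrnb3 probe, also not well above background in TDAG51-/-Tg2, had a measured difference of -0.78, with a floor fold of 1.16. Chrnb4, not well above background there either, had -0.41, or 1.33-fold lower as measured. The brighter Chrna7 probe stood on the other side at 0.99, 1.98-fold higher in TDAG51-/-Tg2 as measured, with TDAG51+/+ not well above background. The dimmer Chrna4 probe followed at 0.68 and the brighter Chrna3 probe at 0.54, while Chrna6, Chrnb2, the dimmer Chrna7, the brighter Chrnb3 and the brighter Chrna4 probes lay between -0.17 and 0.15.

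The TDAG51-/- readings on the first and the second array differed less, by log2 values from -0.28 to 0.21 over the 10 subunit probes above background in Cy3. The robust SD of these differences over all probes above background in both was 0.143 in Cy3 and 0.399 in Cy5, and 0.144 and 0.452 for probes with a mean intensity under 300. The Cy3 channel held TDAG51-/- on both arrays, so its spread covers the arrays and any difference between the TDAG51-/- samples, and the sources do not say whether both arrays received the same RNA. Some transcripts differed widely between these TDAG51-/- samples, as did haemoglobin alpha (Hba-a1), with 2674 and 15328 by one probe and 2259 and 35469 by another on the first and second array. Phlda1 differed too, with 350 on the first array and 44.1, not well above background, on the second.

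**Figure D3:**
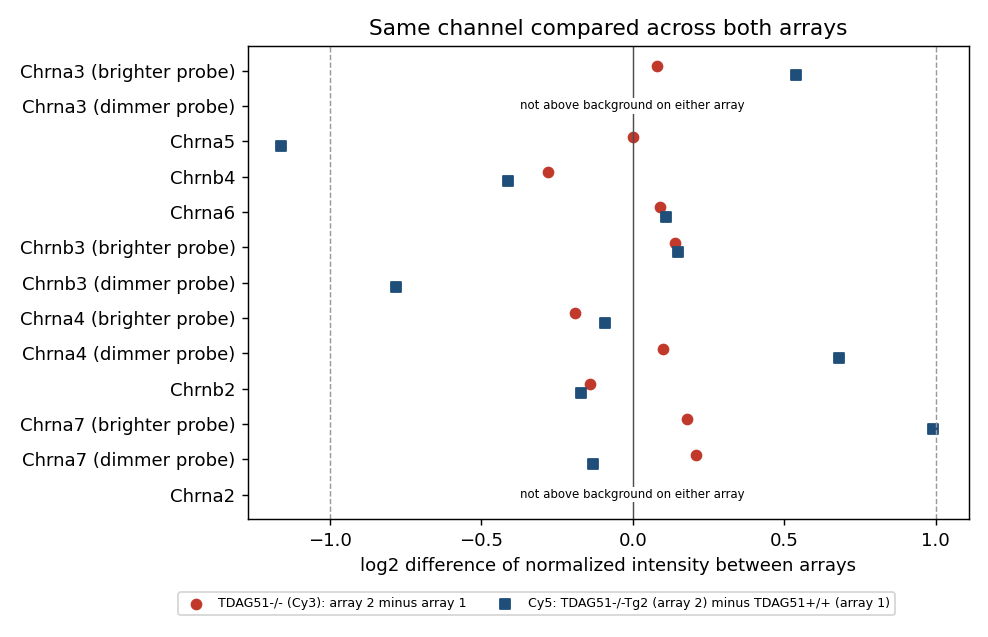
Log2 difference of normalized intensity between both arrays for each subunit probe, with red circles for TDAG51-/- in Cy3 (second minus first array) and blue squares for Cy5 (TDAG51-/-Tg2 minus TDAG51+/+). Channels below background on both arrays have no symbol, and dashed lines mark 2-fold. The red circles stay between -0.28 and 0.21, and the blue squares reach from -1.16 for Chrna5 to 0.99 for the brighter Chrna7 probe.

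Subunits of the muscle and hair cell receptors (Chrna1, Chrna9, Chrna10, Chrnb1, Chrnd, Chrne, Chrng) had 11 probes, of which 9 and 6 met the filter. At 2-fold 1 was higher than in TDAG51+/+, and 0 differed from TDAG51-/-Tg2. It was a probe of Chrne, the adult muscle subunit, which read 633 in TDAG51-/- and 167 in TDAG51+/+, and 387 in TDAG51-/- and 348 in TDAG51-/-Tg2, log2 ratios of 1.90 and 0.35. Medians of the list were -0.04 and 0.01. For this list and those below, the all-probe shares at 2-fold were 4.9% higher and 4.42% lower over TDAG51+/+. Over TDAG51-/-Tg2 they were 4.72% and 3.86%.

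Chaperones and modulators of nicotinic receptors had 22 probes of 14 genes, all above the filter, with medians of 0.01 and 0.12. At 2-fold, 0 were higher and 4 lower than in TDAG51+/+, and 1 was higher and 2 lower than in TDAG51-/-Tg2. Ly6h, which encodes a prototoxin-like inhibitor of the Chrna7 receptor, read 4360 in TDAG51-/- and 13804 in TDAG51+/+, and 4241 in TDAG51-/- and 14099 in TDAG51-/-Tg2 by one probe, log2 ratios of -1.25 and -1.30. The other Ly6h probe gave 0.09 and -0.11, so the low value rests on 1 of 2 probes. Ly6g6e, of the same protein family, had log2 ratios of -1.27 and -1.11 by the probe annotated to NM_027366 and -0.35 and -0.32 by the other. Slurp1, a secreted ligand of the Chrna7 receptor, was lower than in TDAG51+/+ at -1.49 and had -0.35 over TDAG51-/-Tg2. Lypd6, a further modulator, had -1.09 and 0.34 by one probe and 0.70 and 0.04 by the other. Ric3, a chaperone of receptor assembly, had 1 probe past 2-fold over TDAG51-/-Tg2, at 1.05, and at 0.23 over TDAG51+/+, and its 4 other probes lay under 2-fold in both comparisons.

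Cholinergic terminal genes had 9 probes, of which 8 met the filter on each array, with 1 higher and 0 lower in each comparison and medians of 0.12 and -0.07. That probe was Slc5a7, the choline transporter of cholinergic terminals, which read 1285 in TDAG51-/- and 699 in TDAG51+/+, and 1295 in TDAG51-/- and 681 in TDAG51-/-Tg2. TDAG51-/- was the higher sample on both arrays, with log2 ratios of 1.04 and 1.13. Chat, the enzyme that makes acetylcholine, had log2 ratios of -0.42 and -0.18 by its probe above background, and Slc18a3, the vesicular acetylcholine transporter, 0.20 and 0.32.

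Markers of brain regions and cell types that could differ between the samples were read beside the subunits. Habenula markers, where Chrna3, Chrna5 and Chrnb4 are known to be high, had 9 of 9 probes above the filter and 0 past 2-fold in either comparison, with medians of -0.19 and -0.30. Pou4f1, a transcription factor of the medial habenula, had 0.67 and 0.86 by one probe and -0.19 and -0.42 by the other. Tac2, a tachykinin precursor, had -0.65 and -0.86. Midbrain dopamine markers, where Chrna6 and Chrnb3 are known to be high, had medians of 0.65 and 0.90, with 2 of 10 probes higher than in TDAG51+/+ and 4 of 10 higher than in TDAG51-/-Tg2, and Th, tyrosine hydroxylase, at 1.01 and 2.24. The list was mixed, with Nr4a2, a transcription factor, at -0.74 and 0.20. Ddc had 0.50 and 1.30 by one probe and 0.05 and -0.43 by the other. Noradrenaline neurons had 3 of 4 and 3 of 3 probes higher, with medians of 1.92 and 2.69. Serotonin neurons had 3 of 4 higher in both, with medians of 1.84 and 1.98 and Slc6a4, the serotonin transporter, at 3.26 and 2.95.

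Cerebellum markers had 11 of 13 probes higher in both comparisons, with medians of 1.77 and 1.75 and Gabra6, the granule cell GABA receptor subunit, at 3.87 and 3.92. Hindbrain Hox genes had 7 of 18 and 8 of 17 probes higher, with medians of 0.64 and 0.67. Striatum markers had 8 of 15 and 9 of 15 probes lower, with medians of -1.13 and -1.25 and Drd1, the dopamine receptor of direct pathway neurons, at -2.44 and -2.42. Cortex and hippocampus markers had 4 of 7 and 5 of 7 lower, with medians of -1.04 and -1.43. Thalamus markers had 0 of 16 past 2-fold in both, with medians of 0.13 and 0.03. The part of the region markers in the subunit ratios was not tested.

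The remaining lists covered tissues next to or within the brain. Pineal gland markers had 1 of 8 and 1 of 6 probes lower. Pituitary markers had 1 of 7 higher on the first array and 2 of 7 lower on the second. These 2 were Prl, prolactin, with 223 in TDAG51-/- and 5192 in TDAG51-/-Tg2, and Gh, growth hormone, with 109 and 1512. Their log2 ratios were -4.23 and -3.40, and in TDAG51+/+ they read 80.2 and 74.3. Choroid plexus markers had 1 of 6 lower on the first array and 0 of 6 on the second. Blood markers had 3 of 5 lower than in TDAG51+/+ and 4 of 5 higher than in TDAG51-/-Tg2, with medians of -1.42 and 1.22. Of the subunit probes that met the filter on both arrays, Chrna5 had -0.88 and 0.29, with TDAG51-/-Tg2 not well above background. The brighter Chrna7 probe had 0.71, with TDAG51+/+ not well above background, and -0.10, where the scanner's ratio lay within its error of 0. Whether these lists bear on the subunit ratios was not tested.

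**Figure D4:**
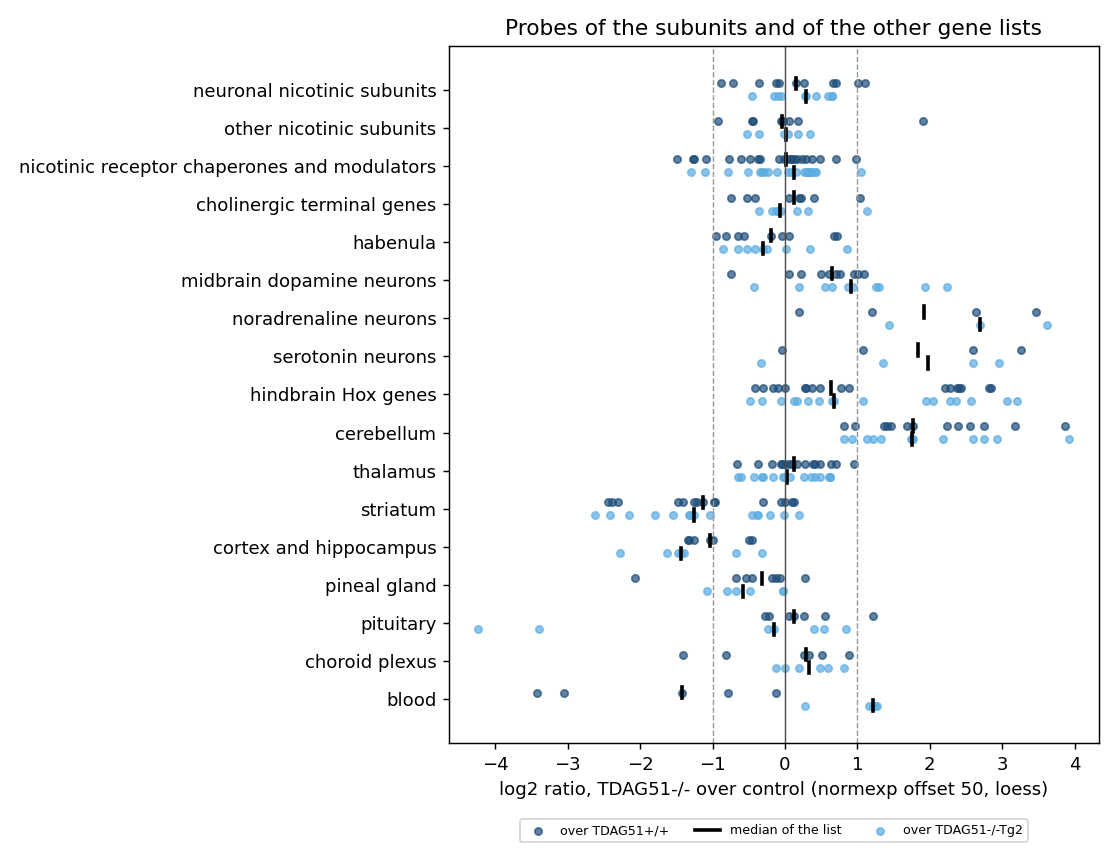
Log2 ratio of TDAG51-/- over TDAG51+/+ (dark) and over TDAG51-/-Tg2 (light) for each probe that met the filter, for the neuronal nicotinic subunits and the 16 other lists, with a black bar at each list's median and dashed lines at 2-fold. The subunits lie around 0 with medians of 0.15 and 0.29, while cerebellum markers centre on 1.77 and 1.75 and striatum markers on -1.13 and -1.25.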

How the data were processed

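Brain RNA of TDAG51-/- dams was hybridized with that of TDAG51+/+ or TDAG51-/-Tg2 dams on 2 arrays (Agilent Whole Mouse Genome), 1 for each comparison, with groups taken from the labels. The authors deposited the output of the scanner software, Agilent Feature Extraction 9.5.3.1 per the submitters' processing notes, from which the mean and median background intensity of each spot and the log10 ratio of Cy5 over Cy3 with its error were taken. The authors also deposited a log2 ratio for each probe, whose normalization is not given in the sources used here. It differed from the scanner's log2 ratio of Cy3 over Cy5 by a median of 0.00594 and 0.0058 in size, which set its direction and base, and its medians were -0.01 on both arrays. It had values for 12 and 10 of the 13 subunit probes.

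Intensities were corrected with normexp (offset 50) and loess-normalized within each array in limma 3.58.1 with R 4.3.3, with control and outlier spots (375 and 300) at weight 0 in the loess fit. Outlier spots were then left out, and spots of a probe were averaged. Cy5 and Cy3 levels across arrays were quantile-normalized on average intensity (Aquantile). Steps were tested on simulated data. Tables used Python 3.11.15, numpy 2.4.6 and pandas 2.3.3, and figures matplotlib 3.10.9. A probe was counted at 2-fold on an array where 1 or both of its channels were well above background. Where only 1 channel was above background a floor fold is given, the brighter channel over the higher of the dim reading and the lowest signal well above background. Where the dim reading was the higher of these, the floor fold equals the measured fold, which is then given as measured.

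Members and lists were chosen with earlier results of these data known. Named genes are all members, Phlda1, every pathway probe past 2-fold, at most 2 leading genes of each marker list, the nearest neighbours of each gene cluster, and the 5 probes most like the brighter Chrna3 probe, whose smaller ratio was the largest before rounding. Chat, Slc18a3, Hba-a1, Nr4a2, Ddc, Prl and Gh were added after their values were seen. Probe coordinates are mm7, as in the scanner output, and no genome or exon annotation of that build was used here. Gene order came from a RefSeq table of GRCm38.p6, to which 32719 of 41174 probes were matched. The number of arrays limits the precision. Alternatives were offset 0, the deposited and the scanner's ratio, median centring or no normalization in place of loess, other filters, floor folds and the brightest probe for each gene.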

Additional observations from a re-analysis of the deposited data

How the results depend on the processing

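With 1 array for each comparison no value has a replicate check, and 9 of 13 subunit probes were dim. Subunit probes at least 2-fold higher than TDAG51+/+ numbered 2, but 3 with offset 0 (Chrna3, Chrna4 and Chrna7), 4 with the scanner's ratio or the deposited log2 ratio (Chrna3, Chrnb3, Chrna4 and Chrna7), and 1 (Chrna3) with median centring, without normalization or with only the brightest probe for each gene. Those lower numbered 0, but 2 (Chrna5 and Chrnb3) with offset 0, the scanner's ratio or the deposited ratio. Those higher than TDAG51-/-Tg2 numbered 0, but 1 (Chrna7) with offset 0 and 4 (Chrna3, Chrna5, Chrnb3 and Chrna7) with the scanner's or the deposited ratio. The all-probe share rose too, to 9.08% higher and 7.68% lower over TDAG51+/+ and 8.73% and 6.68% over TDAG51-/-Tg2 with offset 0, and to 11.6%, 9.46%, 11.2% and 8.14% with the scanner's ratio. With the deposited ratio it was 11.3% and 9.71% over TDAG51+/+ and 10.5% and 8.6% over TDAG51-/-Tg2. No subunit probe was at least 2-fold lower than TDAG51-/-Tg2 under any alternative run. Other filters and floor folds kept each count within 1.5 times. Of 21 probe ratios, 0 changed sign under the 5 alternative scales, and 8 moved by more than the scanner's error with offset 0, 11 with the scanner's ratio, 10 with the deposited ratio, 7 without normalization and 0 with median centring. No paired analysis was possible because each comparison holds 1 array and no replicate.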
